A study of Mus musculus with 6 samples.

Results

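The promoters of long intergenic noncoding RNA (lincRNA) genes were examined in H3K4me3 ChIP-Seq peak lists from mouse striatal progenitor cells. A member was the start of a GENCODE vM21 gene of type lincRNA on chromosomes 1 to 19 that lay more than 5 kb from every protein-coding transcript start. Of 5209 lincRNA genes on these chromosomes, 4505 met the rule and 704 lay closer. The 4505 starts were part of 51229 annotated gene starts on the same chromosomes, which served as the background throughout. A start was called marked in a list when a peak lay within 1 kb of it.

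The 6 peak lists, 1 per condition, came from STHdh cells, an immortalised striatal progenitor line of strain C57BL/6 used as a cell culture model of Huntington's disease. The wild-type line carries the label STHdh7 and is named STHdhQ7 in the study. The mutant line, with an expanded polyglutamine tract in huntingtin, carries the label STHdhQ111. All cells spent 24 hours in medium without serum. The vehicle-treated wild-type cells gave the list Q7SST, and vehicle-treated mutant cells gave Q111SST. The other 4 lists came from the mutant line given 10 uM cyproheptadine, loxapine, diacylglycerol kinase inhibitor II (DKI) or meclizine. The labels name 1 sample per condition, so differences between lists were described without a test, and line, clone and library cannot be told apart. Intervals are 95% Wilson intervals and cover counting error only. The depth of the libraries is unknown, because read totals were not part of the analysis.

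LincRNAs are transcripts annotated as having no protein product, and most are spliced and polyadenylated. Some hold microRNAs or small nucleolar RNAs in their introns, some build nuclear bodies, and some regulate a neighbouring gene. Trimethylation of lysine 4 of histone H3 (H3K4me3) marks the nucleosomes around active start sites of genes read by RNA polymerase II, whether the transcript is coding or not. At protein-coding genes the mark is broadest and most constant over CpG islands, which are stretches rich in CG dinucleotides.

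The cells carried the mark at most genes of their labelled type. Starts of Vim, Foxp1, Meis2 and Ebf1 were marked in all 6 lists, Nes was unmarked under cyproheptadine, and Sox2 was unmarked in Q7SST. Starts of 5 genes of liver, pancreas, heart and testis (Alb, Ins2, Myh6, Tnnt2 and Prm1) were marked in 0 lists. The members were also compared with a second annotation. RefSeq held 2184 of the 4505 by identifier or symbol, and listed 2111 of these as lncRNA and 44 as protein coding. A RefSeq mRNA started within 1 kb of 89 members. Most members have Gm, Rik or clone names, and 85 have a name of another form. The division is by form only. The 85 include C78283, D14Ertd670e and the pseudogene symbol Speer9-ps1, while a characterised RNA such as 1700020I14Rik falls outside them.

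A few promoters are shown first, because the results turn on them. Each is the 300 bases from 250 before to 50 after the annotated start on GRCm38, 5′ to 3′ on the strand of the gene, with CG dinucleotides in capitals. The first pair, 4933404O12Rik and BC002059, lay under some of the strongest peaks in all 6 lists.

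4933404O12Rik: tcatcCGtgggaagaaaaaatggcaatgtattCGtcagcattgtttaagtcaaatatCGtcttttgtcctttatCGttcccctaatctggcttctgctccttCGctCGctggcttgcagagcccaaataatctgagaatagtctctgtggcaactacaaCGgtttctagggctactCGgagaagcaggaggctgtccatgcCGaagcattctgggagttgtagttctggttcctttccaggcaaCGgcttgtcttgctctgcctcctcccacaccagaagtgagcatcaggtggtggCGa
BC002059: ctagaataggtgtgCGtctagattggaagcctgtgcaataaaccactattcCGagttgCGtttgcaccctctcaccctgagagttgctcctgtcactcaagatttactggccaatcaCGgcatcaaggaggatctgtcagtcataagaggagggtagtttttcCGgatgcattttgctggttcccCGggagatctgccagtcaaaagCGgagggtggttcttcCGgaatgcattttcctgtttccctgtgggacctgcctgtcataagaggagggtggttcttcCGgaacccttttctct

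Trp53cor1 had the lowest CpG content among the listed genes marked in all 6 lists. Mir9-3hg had the highest CpG content among the listed genes marked in 0 lists. Mir9-3hg was added to the set after its values were seen.

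Trp53cor1: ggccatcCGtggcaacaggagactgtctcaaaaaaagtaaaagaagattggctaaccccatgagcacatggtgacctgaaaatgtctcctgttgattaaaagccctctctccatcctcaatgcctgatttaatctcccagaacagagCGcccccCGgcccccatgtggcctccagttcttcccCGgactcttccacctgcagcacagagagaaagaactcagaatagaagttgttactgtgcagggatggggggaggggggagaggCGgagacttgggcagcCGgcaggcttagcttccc
Mir9-3hg: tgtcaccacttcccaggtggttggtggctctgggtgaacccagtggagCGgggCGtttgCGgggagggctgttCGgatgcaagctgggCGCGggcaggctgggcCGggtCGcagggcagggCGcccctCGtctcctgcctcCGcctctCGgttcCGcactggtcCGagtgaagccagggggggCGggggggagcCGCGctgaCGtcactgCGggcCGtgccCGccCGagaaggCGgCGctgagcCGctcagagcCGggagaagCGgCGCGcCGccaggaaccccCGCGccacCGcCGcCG

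The last pair differed between the lines. Gm30709 was marked in Q7SST only, and Gm20756 in the 5 mutant lists only.

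Gm30709: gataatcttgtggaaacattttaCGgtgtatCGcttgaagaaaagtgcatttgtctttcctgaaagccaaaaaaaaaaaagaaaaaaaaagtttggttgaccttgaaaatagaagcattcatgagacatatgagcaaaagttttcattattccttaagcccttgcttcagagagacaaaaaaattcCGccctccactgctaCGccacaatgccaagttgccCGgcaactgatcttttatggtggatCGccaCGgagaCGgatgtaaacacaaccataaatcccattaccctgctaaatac
Gm20756: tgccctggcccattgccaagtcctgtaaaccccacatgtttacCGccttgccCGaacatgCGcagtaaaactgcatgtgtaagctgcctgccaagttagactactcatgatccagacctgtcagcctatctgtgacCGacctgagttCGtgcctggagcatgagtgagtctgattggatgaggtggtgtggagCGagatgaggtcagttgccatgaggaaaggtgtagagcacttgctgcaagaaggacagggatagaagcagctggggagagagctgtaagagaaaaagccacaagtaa

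The window of Mir9-3hg (chr7:79499776-79500075) held 35 CG dinucleotides. The windows of 4933404O12Rik (chr5:136918896-136919195) and BC002059 (chr17:16951289-16951588) held 11 and 9, and that of Trp53cor1 (chr17:29079130-29079429) held 6. Gm30709 (chr13:63627330-63627629) had 8 and Gm20756 (chr6:25931176-25931475) had 6. The CpG observed over expected ratio, which divides the CG count by the count that the C and G content would give, was 0.84 for Mir9-3hg, 0.69 for Gm30709, 0.59 for 4933404O12Rik, 0.47 for BC002059, 0.3 for Gm20756 and 0.27 for Trp53cor1. Peaks of all 6 lists covered the whole 300 bases of 4933404O12Rik and BC002059. At Trp53cor1 the peaks covered 273 bases in Q7SST, 247 under cyproheptadine and all 300 under meclizine, and 0 in Q111SST, under loxapine and under DKI, where the peak lay beside the window. At Gm30709 the Q7SST peak covered all 300 bases. At Gm20756 the peaks of the mutant lists covered between 110 and 180 of the bases, at the downstream end of the window.

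Few lincRNA promoters carried the mark. In Q7SST, 521 of 4505 were marked (11.6%, 10.7% to 12.5%), against 31.0% of all gene starts. In Q111SST, 536 were marked (11.9%, 11.0% to 12.9%), against 30.5%. Under cyproheptadine, 410 were marked (9.10%, 8.30% to 9.98%), against 28.0%. Under loxapine, 557 were marked (12.4%, 11.4% to 13.4%), against 30.5%. Under DKI, 411 were marked (9.12%, 8.32% to 10.0%), against 28.1%. Under meclizine, 517 were marked (11.5%, 10.6% to 12.4%), against 30.5%. The lowest shares were in the shortest lists, with 33721 peaks for cyproheptadine and 30758 for DKI, and the highest was in the longest, with 45564 for loxapine. Among the strongest 30758 peaks of each list, the members' share lay between 8.50% under cyproheptadine and 9.72% in Q7SST and under meclizine.

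The members lay between protein-coding genes and pseudogenes. Protein-coding starts were marked in 52.5% to 57% of 20807 cases, depending on the list. Processed pseudogenes, which are reverse-transcribed gene copies with no promoter of their own, were marked in 2.45% to 4.50% of 7949 starts that met the same distance rule. The part of the autosomes within 1 kb of a peak was 3.53% under DKI and up to 5.28% under loxapine. In each list this was below the share of lincRNA starts and above that of pseudogene starts. It counts positions near protein-coding starts, which the distance rule removes from both classes, so it is not a matched background. Antisense genes at the same distance were close to the members, with 7.16% to 10.3% of 1341 starts marked.

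**Figure D1:**
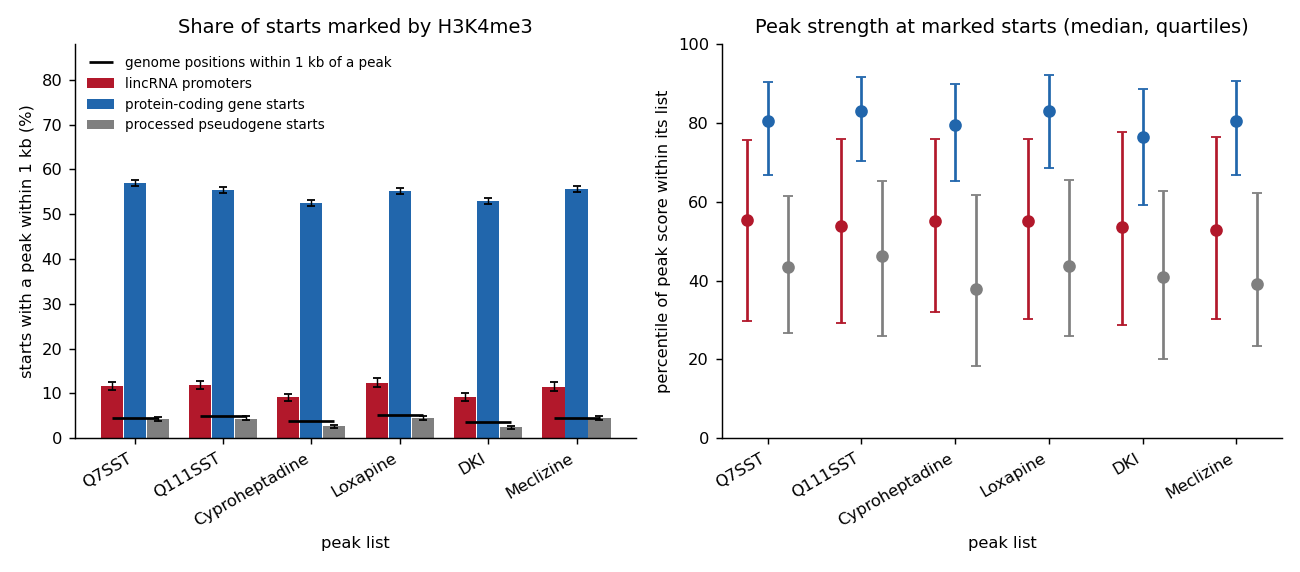
Left, the share of starts with an H3K4me3 peak within 1 kb in each of the 6 lists, with 95% Wilson intervals, for lincRNA promoters, protein-coding gene starts and processed pseudogene starts over 5 kb from a protein-coding start; black lines give the share of genome positions within 1 kb of a peak. Right, the median and quartiles of the peak score percentile at marked starts; in every list lincRNA promoters sat between the other 2 classes on both measures.

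The peaks at marked lincRNA promoters were of middling strength. Strength is given as a percentile, the rank of a peak's score among all peaks of its own list, because the score scale was not stated. The median percentile of marked members was 55.4 in Q7SST, 53.9 in Q111SST, 55.1 under cyproheptadine, 55.1 under loxapine, 53.5 under DKI and 52.9 under meclizine. Marked protein-coding starts had medians between 76.3 and 83, and marked pseudogene starts between 37.9 and 46.2. The quartiles of the members ran from 28.8 to 32.0 at the lower end and from 75.6 to 77.7 at the upper end, so the members spread over most of each list.

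The peaks were narrower than those at protein-coding starts and wider than those at pseudogenes. The median width at marked members was 942 bp in Q7SST, 994 bp in Q111SST, 910 bp under cyproheptadine, 902 bp under loxapine, 837 bp under DKI and 948 bp under meclizine. At protein-coding starts it was 1477 to 1813 bp, at processed pseudogene starts 453 to 520 bp, and over all peaks of a list 766 to 922 bp, below the members' median in each of the 6 lists. The peak covered the annotated lincRNA start itself in 49.4% to 54.9% of marked cases, against 73.7% to 83.2% for protein-coding starts. The centre of the peak lay a median of 127 to 210 bp downstream of the lincRNA start. In each list, 394 to 535 distinct peaks stood behind the marked members, because neighbouring or divergent lincRNA starts shared a peak. Peaks that marked a member never lay within 1 kb of a GENCODE protein-coding start, but 6.14% to 7.30% of the marked members had a peak within 1 kb of a RefSeq mRNA start.

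In all 6 lists, 302 members were marked (6.70%, 6.01% to 7.47%), and 3757 were marked in 0 lists (83.4%, 82.3% to 84.5%). Over all gene starts these shares were 26.2% and 65.6%. Of the 748 members marked in 1 or more lists, 40.4% were marked in all 6 (36.9% to 43.9%). The corresponding share was 76.1% of all gene starts and 84.0% of protein-coding starts (83.4% to 84.7%). Strength was similar in members of 1 to 3 lists and higher above that. The median percentile was 20.2 for the 181 members in 1 list, 18.3 for the 61 in 2, 23.3 for the 63 in 3, 30.3 for the 57 in 4, 37.1 for the 84 in 5 and 66.1 for the 302 in all 6. The median width was 484 to 514 bp in 1 to 3 lists and 1144 bp in all 6. Over all gene starts the percentile was 25.2 in 1 list and 81.4 in all 6. Members that appeared in some lists and not in others thus had mostly narrow peaks from the lower part of each list.

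The strongest lincRNA promoters ranked above the upper quartile of marked protein-coding starts, which was 88.5 to 92.1. The 10 with the highest median percentile were Gm26519, 4933404O12Rik, BC002059, 4930553M12Rik, Platr22, Gm34150, AC122818.2, Gm6712, Gm5165 and Gm26671. The 4933404O12Rik peak had percentile 99.4 in Q7SST, 99.5 in Q111SST, 99.6 under cyproheptadine, 99.8 under loxapine, 99.3 under DKI and 99.5 under meclizine. Its width lay between 1452 and 1523 bp in every list, and the peak covered the start. The gene begins 8260 bp from the nearest protein-coding transcript start.

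BC002059 had percentile 99.8 in Q7SST, 99.7 in Q111SST, 98.8 under cyproheptadine, 99.3 under loxapine, 98.8 under DKI and 99.7 under meclizine. It belongs to a stretch of chromosome 17 that also holds Gm5165 and Gm6712, whose starts lay at 17234872 and 17294443. These 2 had percentiles of 96.9 to 99.2 and 97.8 to 99.6. RefSeq lists both as protein coding, with an mRNA start 31 bp and 0 bp away, and lists BC002059 as lncRNA. In the 6 peaks at Gm5165, 34.3% to 44.8% of the bases were annotated repeats, against 5.03% to 5.65% at BC002059.

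Gm26519 had the highest median percentile of all members, 98.4 in Q111SST and 99.78 to 99.96 in the other lists. Its peak lay 316 to 608 bp from the start and covered 0 of the 300 promoter bases in any list, so the mark was beside the annotated start and not over it. Platr22, a pluripotency-associated transcript by name, had percentile 97.9 in Q7SST, 99.6 in Q111SST, 96.5 under cyproheptadine, 99.3 under loxapine, 99 under DKI and 99.8 under meclizine. At AC122818.2 the peak was strong but short, with percentiles from 95.7 to 99.9 and widths from 469 to 819 bp.

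The widest peaks belonged to other members. Over the 6 lists, peaks at AL805899.1 had widths of 3270 to 5657 bp, those at Malat1 4067 to 5572 bp, those at Lncpint 3887 to 4637 bp and those at Gm32618 3291 to 3872 bp. At Gm53, which lies 20352 bp from the start of Hoxb9, the width was 702 bp in Q7SST and 2547 to 4489 bp in the mutant lists. Width and strength did not go together here, since the percentile at AL805899.1 was 34.0 to 57.3 and that at Malat1 was 46.4 to 63.3.

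Lists of lincRNAs with known roles held 33 members. Of these, 14 were marked in all 6 lists, 14 in 0 lists and 5 in some. Over all members 6.70% were in all 6 lists and 83.4% in 0, and over all gene starts 26.2% and 65.6%, which are the shares to read each group against. Many classical lncRNAs are not members, because GENCODE gives them another type or because they start near a coding gene.

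Host genes of small RNAs were the largest group. Of 12 members, 7 were marked in all 6 lists, with a median percentile of 78.5, 4 in 0 lists and 1 in some, against 6.70% of all members and 26.2% of all gene starts in all 6. Snhg12, which carries small nucleolar RNAs in its introns, had percentile 97.5 in Q7SST, 99.6 in Q111SST, 96.2 under cyproheptadine, 98.6 under loxapine, 94.7 under DKI and 98.8 under meclizine. Snhg6 had 88.6, 92.5, 86.1, 90.0, 81.8 and 86.5 in the same order. Snhg20 had 76.0, 84.3, 79.1, 74.0, 67.4 and 75.8. All 3 were highest in Q111SST and lowest under DKI, the shortest list. Over all gene starts marked in both of these lists, the median difference in percentile under DKI from Q111SST was -6.74. Another small RNA host marked in all 6 lists, 5430416N02Rik, was instead highest under meclizine and lowest under cyproheptadine. The part of list length in the pattern of the Snhg genes was not tested.

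Among microRNA hosts, Mir17hg, the source of the miR-17-92 cluster that promotes cell division, had percentile 79.8 in Q7SST, 86.2 in Q111SST, 74.3 under cyproheptadine, 74.8 under loxapine, 77.2 under DKI and 81.9 under meclizine. Mir155hg, best known in activated immune cells, had 53.9, 60.8, 40.6, 48.6, 62.0 and 48.6 in that order. Mir670hg lay between 56.2 and 65.0 in the 6 lists. Hosts of brain microRNAs were weak or unmarked. Mir124a-1hg had percentiles of 18.6 in Q7SST, 18.7 in Q111SST, 4.96 under loxapine and 4.43 under meclizine, and no peak under cyproheptadine or DKI. Mir124-2hg and Mir9-3hg, hosts of neuronal microRNAs, had no peak in any list. The nearest peak to Mir9-3hg lay 3590 bp away under meclizine and 32489 to 33201 bp away in the other lists, and its promoter has a GC content of 75%.

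Growth, p53 and Myc neighbourhood RNAs were marked in all 6 lists, 4 of 4 members, against 6.70% of all members and 26.2% of all gene starts. Pvt1, which starts 52595 bp from Myc, had percentile 92.3 in Q7SST, 95 in Q111SST, 93.5 under cyproheptadine, 94.6 under loxapine, 90.5 under DKI and 94.9 under meclizine. Lncpint, a p53-induced transcript, had 44.4 in Q7SST and 51.7 to 70.9 in the mutant lists. Trp53cor1, known as lincRNA-p21, lies 11797 bp from Cdkn1a, the p21 gene. Its percentile was 35.2 in Q7SST, 49.9 in Q111SST, 53.4 under cyproheptadine, 55.1 under loxapine, 64.1 under DKI and 54.9 under meclizine. At Trp53cor1 and Lncpint Q7SST was thus below each of the 5 mutant lists. The mouse counterpart of NORAD, 2900097C17Rik, had 66.8 in Q7SST and 56.9 to 73.7 in the mutant lists.

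Nuclear body RNAs gave 3 different patterns. Malat1, a nuclear speckle RNA, was marked in all 6 lists, with percentile 46.4 in Q7SST, 47.2 in Q111SST, 50.6 under cyproheptadine, 63.3 under loxapine, 60.6 under DKI and 50.9 under meclizine. Neat1, the scaffold of paraspeckles, had 36.5, 25.9, 18.3 and 24.3 in the first 4 of these, no peak within 1 kb under DKI, where the nearest lay 1716 bp away, and 7.46 under meclizine. Its peak lay 651 to 720 bp from the annotated start. Miat had no peak within 10 kb in any list.

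The 4 imprinted RNAs were marked in 0 lists, as were 83.4% of all members. At H19 the nearest peak lay 1954 to 2201 bp from the start in the 6 lists. At Meg3, from the imprinted Dlk1-Dio3 domain, it lay 85737 to 85862 bp away. Mirg and Gm26945 also had 0 peaks within 1 kb.

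Of 8 neural RNAs, 1 was marked in all 6 lists, 2 in some and 5 in 0, a share in 0 lists below the 83.4% of all members and close to the 65.6% of all gene starts. The member in all 6 lists was 1700020I14Rik, known as Cyrano, with percentile 96.9 in Q7SST, 97.4 in Q111SST, 98.7 under cyproheptadine, 99 under loxapine, 96.7 under DKI and 97.8 under meclizine. C130071C03Rik, the host of miR-9-2, had percentile 34.0 in Q7SST, 3.04 under meclizine and no peak in the other lists. Rmst, a regulator of neuronal differentiation, and Paupar, the neighbour of Pax6, had no peak within 1 kb in any list.

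Mesenchymal and Hox RNAs had 2 members. Carmn, a transcript of cardiac mesoderm and smooth muscle, had percentile 45.4 in Q7SST, 69.8 in Q111SST, 52.5 under cyproheptadine, 69.0 under loxapine, 55.1 under DKI and 63.6 under meclizine, again with Q7SST lowest. Hotair, transcribed from the HoxC locus, was weakly marked in 4 lists and near the floor in Q7SST and Q111SST. It had 0.333 in Q7SST, 3.23 in Q111SST, 28.9 under loxapine and 23.4 under DKI, and its peaks lay 845 to 1000 bp from the start.

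Of 6 RNAs of other tissues, 4 were unmarked in all lists, close to the 65.6% of all gene starts. They included the embryonic stem cell transcripts Lncenc1, Platr4 and Platr10, and of the 18 members named Platr, 15 were in 0 lists, Platr22 in all 6 and Platr27 and Platr29 in 3. The marked ones were Mir155hg and Bvht, a cardiac lncRNA known as Braveheart, which had percentile 21.1 under loxapine and 9.61 under DKI only. Over all 85 members with a name of another form than Gm, Rik or clone, 20 were marked in all 6 lists (23.5%, 15.8% to 33.6%). Of the 4420 with a Gm, Rik or clone name, 282 were (6.38%, 5.70% to 7.14%). The CpG ratio at the start had a median of 0.294 in the former and 0.211 in the latter.

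**Figure D2:**
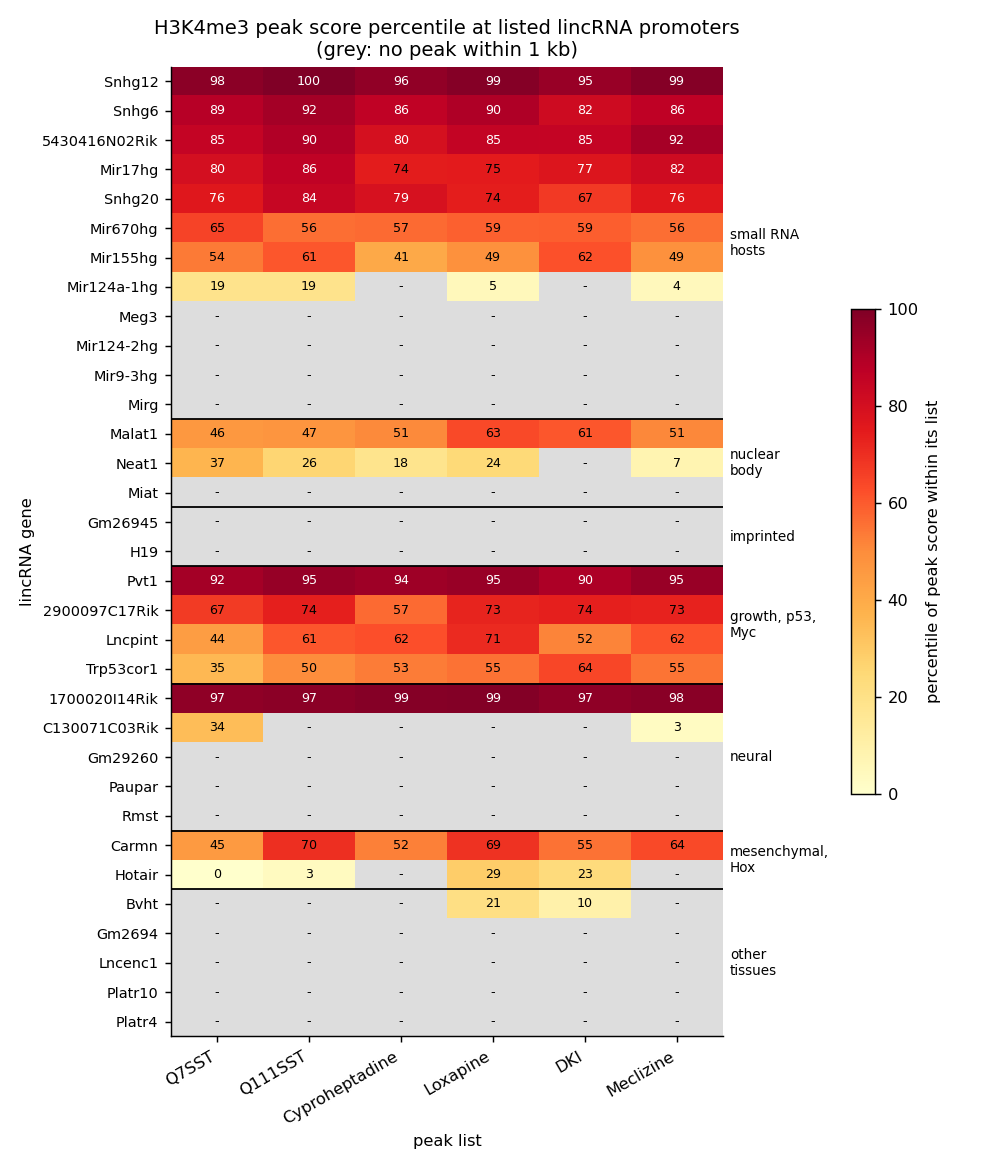
Percentile of the strongest H3K4me3 peak within 1 kb of the start, for the 33 listed lincRNA genes (rows, by group; a gene of 2 groups is drawn once) in the 6 lists (columns); grey cells have no peak. Snhg12, Pvt1 and 1700020I14Rik were above 90 in every list, while 14 genes were grey throughout.

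CpG content divided the members. Of the 274 members with a CpG ratio of 0.6 or more, 89 were marked in all 6 lists (32.5%, 27.2% to 38.2%). The share was 9.57% (7.42% to 12.2%) of 575 members from 0.4 to 0.6, 5.98% (4.90% to 7.28%) of 1538 from 0.2 to 0.4, and 3.12% (2.46% to 3.95%) of 2118 below 0.2. At protein-coding starts the corresponding shares were 83.8%, 54.5%, 20.4% and 5.72%, higher in each bin. Over all gene starts they were 74.6%, 31.0%, 9.68% and 3.20%, so the members lay below the background except in the lowest bin, where they were close to it. With 500 bases on each side of the start in place of the 300, the uppermost bin held 139 members, of which 56.1% were marked in all 6 lists (47.8% to 64.1%), against 81.8% of all gene starts and 84.8% of protein-coding starts, a smaller gap to all gene starts than in the 300 bases. The median percentile of members in all 6 lists was 77.8 in the uppermost bin and 57.5 in the lowest, and the median width was 1470 and 951 bp.

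CpG-poor promoters were still a large part of the constant set. Of the 302 members marked in all 6 lists, 66 had a ratio below 0.2 and 92 lay between 0.2 and 0.4. The median ratio was 0.378 in this set, 0.242 in the 446 members marked in 1 to 5 lists and 0.2005 in those in 0 lists. Protein-coding starts marked in all 6 lists had a median of 0.778.

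Short promoter motifs were counted on both strands of the 300 bases. The GC box GGGCGG was in 29.5% of the members marked in all 6 lists, 12.1% of those in 1 to 5 lists and 5.99% of those in 0 lists, against 23.6% of all gene starts. The motif holds a CG dinucleotide, as does CCGGAA, the core of ETS factor sites, with 16.6%, 6.05% and 6.49% in the same order, against 10.8%. The TATA motif TATAAA ran the other way, with 12.3%, 15.0% and 18%, against 17.2%. CCAAT was in 38.7%, 36.1% and 38.2%, against 38.2%, and so differed little. Among the printed promoters, CCAAT was in BC002059, Trp53cor1 and Gm20756, GGGCGG in Mir9-3hg and Gm30709, and CCGGAA in BC002059. A match is a description of these letters and not a bound site.

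The share of marked members also declined with distance from coding genes. From 5 to 10 kb, 35 of 296 were marked in all 6 lists (11.8%, 8.63% to 16%). From 10 to 50 kb the share was 9.21% (7.85% to 10.8%) of 1498, from 50 to 200 kb it was 6.37% (5.30% to 7.64%) of 1680, and beyond 200 kb it was 2.13% (1.41% to 3.21%) of 1031. The median CpG ratio was 0.238, 0.223, 0.220 and 0.179 in the same bins, and its part in the decline was not tested. Just outside the rule, 7 of 79 lincRNA starts from 4 to 5 kb were marked in all 6 lists, and just inside it 7 of 57 from 5 to 6 kb. Number of exons showed no steady relation, with 8.87% of single-exon members in all 6 lists, 6.83% with 2 exons, 5.37% with 3 to 5 and 9.08% with over 5.

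**Figure D3:**
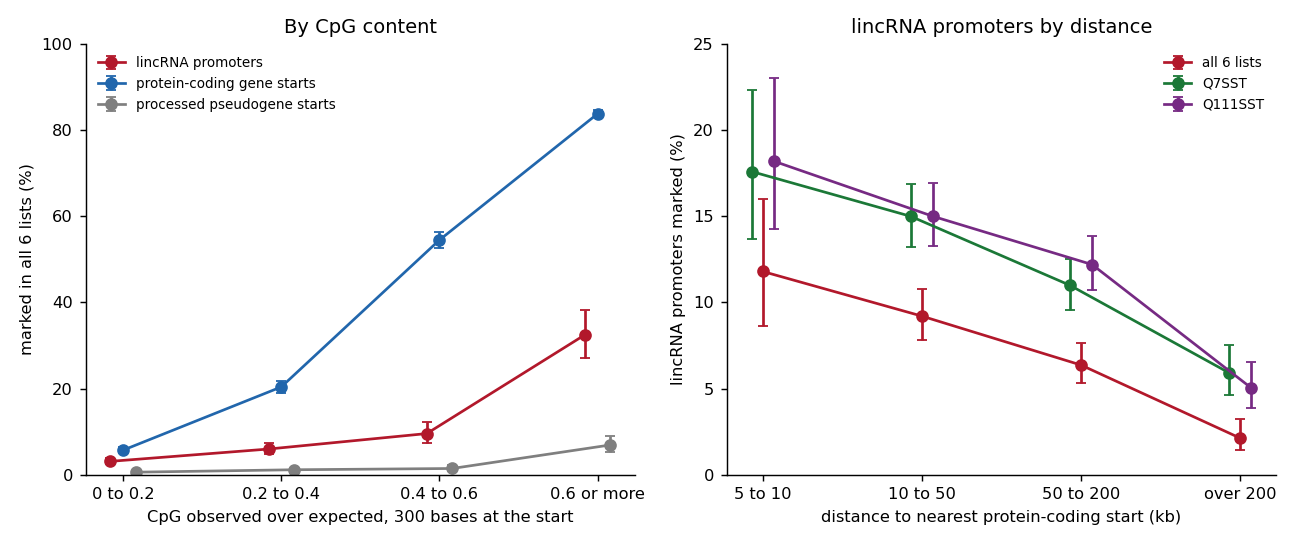
Left, the share of starts marked in all 6 lists by CpG observed over expected ratio in the 300 bases at the start, for 3 classes of start. Right, the share of lincRNA promoters marked by distance to the nearest protein-coding start, in all 6 lists, in Q7SST and in Q111SST; error bars are 95% Wilson intervals, and the share in all 6 lists went from 11.8% at 5 to 10 kb to 2.13% beyond 200 kb.

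RefSeq type moved with the mark as well. Of the 44 members that RefSeq lists as protein coding, 13 were marked in all 6 lists (29.5%, 18.2% to 44.2%), with a median percentile of 90.5. Of the 2111 listed as lncRNA, 159 were (7.53%, 6.48% to 8.74%), with 66.0, and of the 2321 with no match 126 were (5.43%, 4.58% to 6.43%), with 64.9. Members without a RefSeq mRNA start within 5 kb gave 6.26% (5.58% to 7.02%).

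The share of members marked in all 6 lists was also counted by chromosome. It was highest on chromosome 17 (25 of 199, 12.6%), chromosome 4 (20 of 179, 11.2%) and chromosome 11 (15 of 148, 10.1%). It was lowest on chromosome 12 (10 of 284, 3.52%), chromosome 8 (11 of 306, 3.59%) and chromosome 18 (7 of 177, 3.95%). Over all gene starts the shares were 30%, 29.8% and 37.4% on the first 3 of these chromosomes and 19.8%, 29.6% and 24.3% on the last 3. These values were not tested against each other.

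The wild-type and mutant lists were compared next, to see which lincRNA promoters were marked in 1 line and not in the other. Against Q111SST, 136 members were marked in Q7SST and not in Q111SST (3.02%), against 2.65% of all gene starts. In the reverse direction, 151 were marked in Q111SST and not in Q7SST (3.35%), against 2.16%. The balance turned in lists of equal size, the strongest 30758 peaks of each, with 124 in Q7SST (2.75%) and 114 in Q111SST (2.53%). Over all gene starts these shares were 2.49% and 1.83%. With a score minimum of 47 there were 90 (2.00%) and 70 (1.55%), against 2.24% and 1.53%. That minimum is not an equal cut, since the median score was 50 in Q7SST and 43 in Q111SST. Relative to the number of marked starts, fewer lincRNA than protein-coding marks were shared. Of 536 members marked in Q111SST, 385 were also marked in Q7SST (71.8%, 67.9% to 75.5%), while 92.9% of all gene starts and 96.2% of protein-coding starts were. The 151 had a median percentile of 29.3 in Q111SST, against 62.5 for the 385.

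All 5 mutant lists were then used against Q7SST. In Q7SST and 0 of the mutant lists, 2.46% of the members were marked (2.05% to 2.96%), against 1.98% of all gene starts. In all 5 mutant lists and not in Q7SST, 52 members were marked (1.15%), against 0.74%. Both counts fell with stricter definitions of a mark and moved less in other settings. In lists of equal size they were 92 in Q7SST only and 54 in the mutant lists only, and with a window of 2 kb 141 and 72. With a score minimum of 47 they were 50 in Q7SST only and 18 in the mutant lists only, and with a peak over the start itself 63 and 29. Of the Q7SST-only members, 73 (65.8%) had no mutant peak within 10 kb, and of the 52, 33 (63.5%) had no Q7SST peak within 10 kb. Of the members in 0 lists, 66.8% had no peak of any list within 10 kb. The Q7SST-only members made up 21.3% of all members marked in Q7SST, against 6.39% over all gene starts, and were mostly weak, with a median percentile of 26.8 and a median width of 637 bp. For single mutant lists, the members held alone numbered 15 in Q111SST, 7 under cyproheptadine, 34 under loxapine, 2 under DKI and 12 under meclizine. These were 0.487% to 6.10% of the members marked in each list, against 0.229% to 1.52% over all gene starts. These 5 lists come from the same line, while Q7SST is the only list of its line.

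The strongest members of the Q7SST-only set were Gm30709, Gm31946, Gm33756, 2900045O20Rik, 4930524O08Rik, Gm40418, Gm43447 and Gm20703. Gm30709 had percentile 94.7 in Q7SST with a peak of 997 bp over the start, and the nearest peak in the mutant lists lay 16907 bp away or farther. The start lies 53781 bp from Ptch1, the Hedgehog receptor gene. Gm31946 had percentile 82.9 and a peak of 1841 bp, with the nearest mutant peak 55847 bp away, and lies 227491 bp from Nr2f1, which codes for a nuclear receptor of neural development. The other 6 had percentiles of 69.5 to 74.9. Peaks at Gm40418 and Gm43447 covered the start, and those at Gm33756 and 2900045O20Rik lay 195 and 232 bp from it.

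The strongest members of the mutant-only set were Gm20756, Gm15889, Gm8579, Gm47990, AC132251.1, Gm35363, Gm37170 and Gm49282. Gm20756 had percentile 98.5 in Q111SST, 93.2 under cyproheptadine, 96.4 under loxapine, 95.7 under DKI and 97.7 under meclizine, with widths of 1311 to 2101 bp. The nearest Q7SST peak lay 121705 bp away. Gm15889, which starts 8566 bp from Herpud1, a gene of the endoplasmic reticulum stress response, had 90.5, 73.2, 90.8, 82.6 and 85.2 in that order. Gm8579 had 67.1 to 89.1 in the mutant lists, and its nearest Q7SST peak was 51643 bp away. Gm47990, 24581 bp from Bmp6, had 56.9 to 87.0. AC132251.1 and Gm37170 had a Q7SST peak 3191 and 1410 bp from the start.

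Members without a Gm, Rik or clone name also appeared here, chosen after their values were seen. Halr1, next to the HoxA cluster, Bloodlinc, a red blood cell transcript, Eprn and C78859 were marked in all 5 mutant lists and not in Q7SST, with median percentiles of 15.6, 27.6, 23.3 and 63.6. C78859 ranged from 39.7 under DKI to 78.3 in Q111SST. Eprn ranged from 7.94 under cyproheptadine to 65.65 under loxapine.

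The line-specific members were also counted by chromosome, in small numbers that were not tested. Chromosome 13 held 16 of the Q7SST-only members (4.17% of its 384 members), chromosome 3 held 11 (4.60% of 239) and chromosome 1 held 10 (3.53% of 283). Chromosome 11 held 0 and chromosomes 4, 5 and 16 held 1 each, although 23 members on chromosome 4 and 36 on chromosome 5 were marked in Q7SST. The Q7SST-only shares of all gene starts were 2.04% on chromosome 13, 1.98% on chromosome 3 and 2.53% on chromosome 1, and 1.3%, 1.43%, 2.22% and 1.62% on chromosomes 11, 4, 5 and 16. Of the mutant-only members, chromosome 8 held 7 (2.29% of its members), chromosome 13 held 6 (1.56%), chromosome 15 held 6 (3.43%), chromosome 11 held 4 (2.70%), chromosome 6 held 4 (2.01%), chromosome 19 held 3 (2.59%), and chromosomes 14 and 16 held 0. The mutant-only shares of all gene starts were between 0.424% and 1.16% on every chromosome. The protein-coding gene nearest to a Q7SST-only member was itself marked in Q7SST and not in Q111SST in 12 cases (10.8%), against 303 of 4505 over all members (6.73%). The opposite call, in Q111SST and not in Q7SST, was found in 4 cases (3.60%), against 99 of 4505 (2.20%). For mutant-only members, the nearest gene was marked in Q111SST and not in Q7SST in 0 of 52 cases. It was marked in Q7SST and not in Q111SST in 4 (7.69%), against 6.73% over all members.

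Strength was compared in the 302 members marked in all 6 lists. At 73 of them the Q7SST percentile was above all 5 mutant lists (24.2%, 19.7% to 29.3%), against 21.2% of all gene starts in all 6 lists. At 61 it was below all 5 (20.2%, 16.1% to 25.1%), against 14.9%. The shares in both directions were thus near or somewhat above the background.

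The largest differences upward were at Gm47101, 1700017G19Rik, Gm17767, Gm30684 and Gm29266. At 1700017G19Rik, 8374 bp from Intu, the percentile was 59.1 in Q7SST, 14.9 in Q111SST, 16.3 under cyproheptadine, 8.50 under loxapine, 18.5 under DKI and 54.9 under meclizine, so meclizine came close to Q7SST and the other 4 did not. Gm17767 had 97.0 in Q7SST and 44.3 to 66.8 in the mutant lists. At Gm47101, which had 89.4 in Q7SST and 26.6 to 63.7 in the mutant lists, 68.2% to 72.8% of the bases under the peaks were annotated repeats. A RefSeq mRNA starts 13 bp from Gm29266.

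The largest differences downward were at 2810407A14Rik, 5430435K18Rik, Gm10830, Gm28876 and Gm47514. At 2810407A14Rik, 85130 bp from Bach1, the percentile was 29.8 in Q7SST, 93.2 in Q111SST, 89.5 under cyproheptadine, 96.0 under loxapine, 94.4 under DKI and 97.6 under meclizine. The Q7SST peak there was 243 bp wide and lay 538 bp from the start, while peaks of 1217 to 1361 bp covered the start in the mutant lists. At 5430435K18Rik, 18469 bp from Stard13, the percentile was 9.57 in Q7SST and 59.4 to 90.2 in the mutant lists. Gm10830 and Gm28876 start close together on opposite strands and shared 1 peak in each list, with percentile 11.4 in Q7SST and 67.5 to 72.4 in the mutant lists. The peak was not narrow in Q7SST, where its width was 1709 bp.

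**Figure D4:**
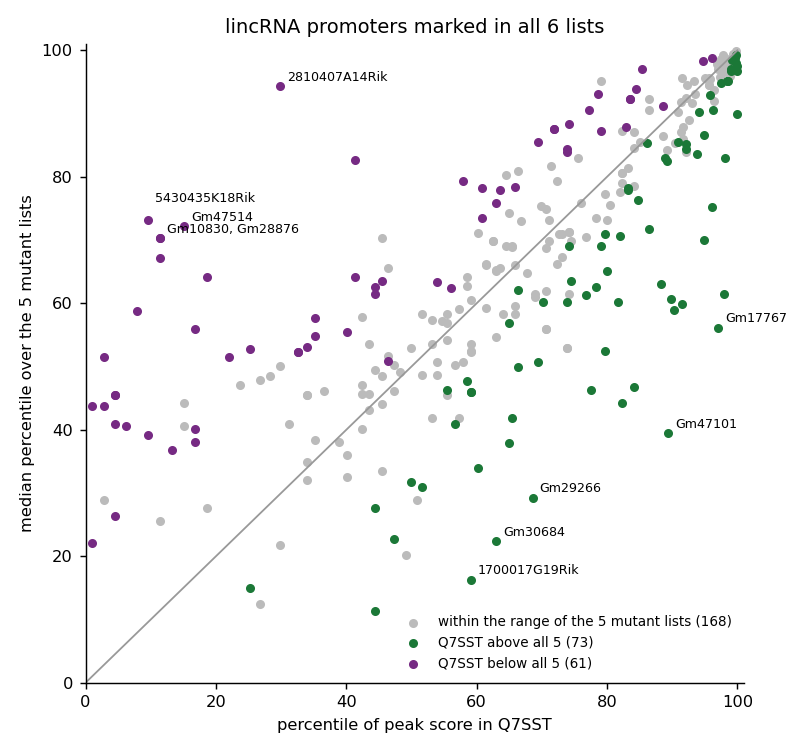
Each point is 1 of the 302 lincRNA promoters marked in all 6 lists, with its peak score percentile in Q7SST (horizontal) and its median percentile over the 5 mutant lists (vertical); the line marks equal values. Q7SST lay above all 5 mutant lists at 73 promoters and below all 5 at 61, and the 10 members with the largest such differences are named.

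The 4 compounds, all at 10 uM for 24 hours, were each set against Q111SST, the mutant list with vehicle. They share that list, so their gains and losses are not independent. Under cyproheptadine, 19 members were gained, against 0.379% of all gene starts, and 145 were lost, against 2.87%. As shares of the members these were 0.422% and 3.22%. Under loxapine, 70 were gained (1.55%), against 1.13%, and 49 lost (1.09%), against 1.14%. Under DKI, 15 were gained (0.333%), against 0.289%, and 140 lost (3.11%), against 2.69%. Under meclizine, 39 were gained (0.866%), against 0.902%, and 58 lost (1.29%), against 0.956%. The background lay outside the members' interval for gains under loxapine (1.23% to 1.96%) and losses under meclizine (1.00% to 1.66%), where the members were higher, and within it for the other 6 shares.

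The balance of gains and losses moved with list length. Among the strongest 30758 peaks of each list, cyproheptadine had 34 gained and 79 lost, loxapine 38 and 67, DKI 46 and 63, and meclizine 53 and 43. As shares of the members the gains were 0.755%, 0.844%, 1.02% and 1.18%, against 0.523%, 0.679%, 0.707% and 0.935% of all gene starts, and the losses 1.75%, 1.49%, 1.40% and 0.954%, against 1.82%, 1.67%, 1.52% and 0.841%. Loxapine, with more gains than losses in the deposited lists, had fewer here, and meclizine changed the other way. Here the background lay within the members' interval for gains under loxapine (0.615% to 1.16%) and losses under meclizine (0.709% to 1.28%). It lay below the interval for gains under cyproheptadine (0.541% to 1.05%) and DKI (0.766% to 1.36%). The exceptions thus changed with the setting. Of the 536 members marked in Q111SST, 391 were also marked under cyproheptadine (72.9%, 69.0% to 76.5%), 487 under loxapine (90.9%, 88.1% to 93.0%), 396 under DKI (73.9%, 70.0% to 77.4%) and 478 under meclizine (89.2%, 86.3% to 91.5%). Over all gene starts these shares were 90.6%, 96.3%, 91.2% and 96.9%. The members lost had median percentiles in Q111SST of 18.7, 16.8, 20.6 and 12.9 in that order, and those in both lists had 56.9 to 63.7.

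In members marked in both lists, the median difference in percentile from Q111SST was -6.34 under cyproheptadine, 0.0603 under loxapine, -6.79 under DKI and -1.35 under meclizine. Over all gene starts it was -4.04, -0.407, -6.74 and -1.68. These are ranks in lists of different length, with 40406 peaks in Q111SST, 33721 under cyproheptadine and 30758 under DKI. The same peak ranks lower in a list with fewer weak peaks, so a fall in percentile is not by itself a weaker mark. The part of list length in these differences was not tested. The median difference in width was -180 bp under cyproheptadine and -209 bp under DKI, against -195 and -288 bp over all gene starts.

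**Figure D5:**
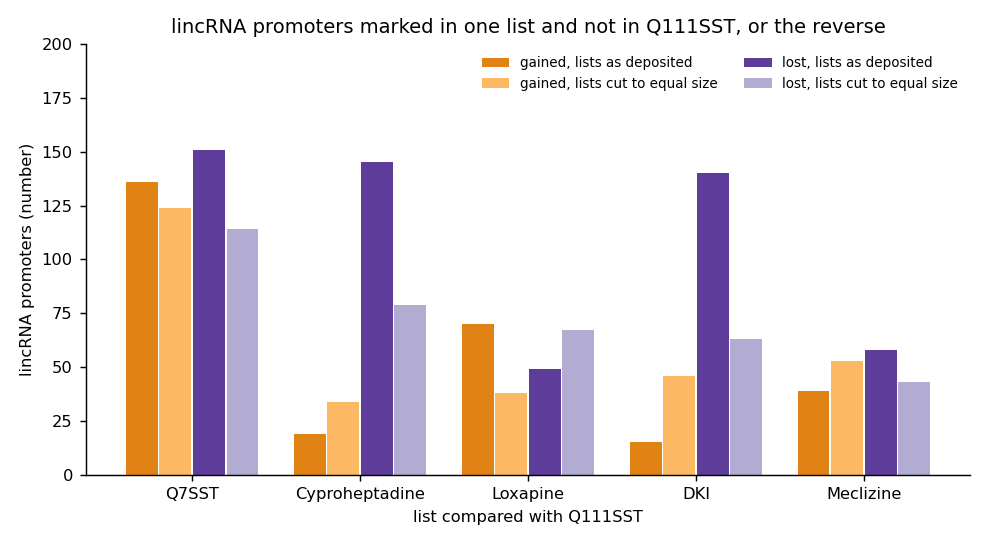
Number of lincRNA promoters marked in a list and not in Q111SST (gained) or in Q111SST and not in the list (lost), for Q7SST and the 4 compound lists, with the lists as deposited and with the strongest 30758 peaks of each. Cyproheptadine had 145 lost and 19 gained with the deposited lists, and 79 and 34 at equal size.

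A peak in each of the 4 compound lists but none in Q111SST was found at 3 members, Gm12022, Gm13073 and Gm26909, which is 0.0666% of the members against 0.0351% of all gene starts. Gm12022, 525730 bp from Meis1, had percentile 51.6 under cyproheptadine, 30.4 under loxapine, 59.1 under DKI and 35.9 under meclizine. It was also marked in Q7SST, at 73.8, and the nearest peak in Q111SST was 366366 bp away. Gm13073, 6437 bp from Slc25a33, had 16.3, 39.5, 39.7 and 29.0 and no peak within 1 kb in either vehicle list. Gm26909 had 27.4, 52.0, 7.80 and 1.58 in the same order.

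In Q111SST and 0 of the compound lists, 20 members were marked (0.444%), against 0.463% of all gene starts. Gm47243 was the strongest, with percentile 96.0 in Q111SST. Its peak lay 966 bp from the start there, and peaks lay 1003 to 1321 bp away in the other 5 lists, so it differed by its position around 1 kb. Gm35835, which was lost under cyproheptadine, loxapine and DKI, had the same property, with a peak 933 bp away in Q111SST and 1027 to 1042 bp away in those 3 lists. Gm37233 and Gm26825, lost under meclizine, had a peak 1006 and 1060 bp away. By contrast, Gm49607 had percentile 71.1 in Q111SST and the nearest peak under cyproheptadine lay 6327 bp away. Of the members lost, a peak lay within 2 kb in 16 of 145 under cyproheptadine, 14 of 49 under loxapine, 16 of 140 under DKI and 16 of 58 under meclizine.

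Among gains, G930009F23Rik was marked under loxapine only, with percentile 58.8 and a peak of 417 bp over the start, and the nearest peak in the other lists lay 1716 to 1927 bp away. 2310039L15Rik, 12143 bp from Cradd, had percentile 10.4 under loxapine, 48.9 under DKI and 43.8 under meclizine, and the nearest peaks in Q111SST and under cyproheptadine lay 11666 and 11687 bp away. Platr29, 6712 bp from Ncoa3, was marked in Q7SST at 80.4, under loxapine at 65.1 and under meclizine at 92.7, and a peak lay 1014 to 1043 bp away in the other 3 lists. Gm48844 was marked under cyproheptadine only, at 35.0, and the nearest peak in the other lists was 25093 bp away or farther.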

How the data were processed

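H3K4me3 ChIP-Seq was performed on chromatin digested with micrococcal nuclease, with single-end sequencing. Per the submitters' processing notes, reads were handled with Trimmomatic 0.36, Bowtie2, SAMtools 1.3 and MACS2 on mm10, which is GRCm38; the role and options of each tool, any input control and the pooling of replicates are not given in the sources used here. The authors deposited 1 list per condition, in which each peak has a whole-number score of unstated scale, 10 at the lowest. Its highest value was 762 in Q7SST and 1288 to 1734 in the other lists, so scores were ranked within a list.

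Gene starts came from GENCODE vM21 and sequence and a second annotation from RefSeq GRCm38.p6. The strongest peak within 1 kb of a start gave its percentile and width. Repeats were the lower-case bases of the reference. Members, lists and named genes were chosen with earlier results of these data known. Named genes were the role lists, plus those highest in strength, width, line difference or compound difference. Samples were grouped by their labels. Only 1 list per condition was analysed, so no test was run. The marking code was tested on simulated data, where 1000 of 1000 starts were called as planted. Alternatives were other windows (0 or 2 kb, or any transcript start), a score minimum of 47, lists of 30758 peaks, 20 kb from coding starts, the nearest peak, and peaks away from coding starts. Tables were made with pandas 2.3.3 and numpy 2.4.6 in Python 3.11.15, intervals with scipy 1.17.1, and figures with matplotlib 3.10.9.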

Additional observations from a re-analysis of the deposited data

How the results depend on the processing

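No paired analysis was possible because the labels give 1 sample for each condition, and for the same reason no sample was left out in turn. Leaving out peaks near a RefSeq mRNA start was chosen after seeing the data. Over all alternatives, 125 shares, counts and median percentiles stayed within their interval or within 1.5 times their count and 73 moved, and for peak widths and starts covered these numbers were 26 and 10. Leaving out peaks near a GENCODE protein-coding start removed 0 of the peaks at members and so tests nothing, and its 20 values are among the 125. The values stayed within those limits with any transcript start, the nearest peak, protein_coding transcripts only, and without peaks near a RefSeq mRNA start. Wider, narrower or stricter definitions move shares by construction. For other values the cause was not tested. The effect of library depth on weak peaks was not tested.

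In the order Q7SST, Q111SST, cyproheptadine, loxapine, DKI and meclizine, the share marked was 6.28%, 6.42%, 4.73%, 6.10%, 4.79% and 6.30% with a peak over the start itself, with 3.29% in all 6 lists and 90.8% in 0. With a window of 2 kb it was 14.3%, 14.8%, 11.5%, 15.6%, 11.1% and 14.3%, with 8.06% and 79.1%. With the score minimum it was 6.55%, 6.10%, 4.51%, 6.86%, 4.95% and 7.08%, with 3.33% and 90.6%. Over 20 kb from coding starts it was 10.5%, 10.7%, 8.02%, 11.0%, 8.02% and 10.3%, with 5.83% and 84.9%. With lists of equal size it was 9.72% in Q7SST, 9.50% in Q111SST, 8.86% under loxapine and 9.72% under meclizine, with 5.68% and 86.1%.

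With a peak over the start, 77 members were marked in Q7SST and not Q111SST, 83 the reverse, 63 in Q7SST only and 29 in the mutant lists only. With the score minimum these were 90, 70, 50 and 18. With a peak over the start, cyproheptadine had 9 gained and 85 lost, loxapine 39 gained and 53 lost, the reverse of its balance in the main comparison, DKI 88 lost and meclizine 36 lost. As shares of the members these losses were 1.89%, 1.18%, 1.95% and 0.799%, against 4.02%, 2.54%, 3.23% and 1.11% of all gene starts. The background thus lay above the members' interval for each of these losses, unlike in the main comparison. With the score minimum, 88 were lost under cyproheptadine (1.95%), 29 under loxapine (0.644%) and 71 under DKI (1.58%). Over all gene starts these were 3.55%, 1.13% and 3.52%, each above the members' interval. Meclizine had 63 gained (1.40%) and 19 lost (0.422%), against 1.32% and 0.529%. The minimum is not an equal cut, since the median score was 43 in Q111SST, 40 under cyproheptadine and 54 under meclizine. With lists of equal size, cyproheptadine had 34 gained and 79 lost, loxapine 38 gained, and DKI 46 gained and 63 lost. With the 2 kb window cyproheptadine had 35 gained, and over 20 kb from coding starts DKI had 9 gained and meclizine 25.

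The median percentile with lists of equal size was 49.98 in Q111SST, 51.7 under loxapine and 48.4 under meclizine. With the score minimum it was 48.2 in Q111SST, 47.1 under cyproheptadine, 47.2 under loxapine and 47.4 under meclizine. With 500 bases on each side, 15.1% of members with a CpG ratio of 0.4 to 0.6 and 56.1% of those at 0.6 or more were marked in all 6 lists.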

Other observations

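LincRNA starts on the X chromosome were not members, and were counted by the same distance rule. Of 90 such starts, 7 were marked in all 6 lists (7.78%, 95% Wilson interval 3.82% to 15.2%). They included 3 genes of the X inactivation centre. Xist, the RNA that coats the inactive X, had percentile 69.0 in Q7SST, 67.1 in Q111SST, 68.4 under cyproheptadine, 79.0 under loxapine, 73.7 under DKI and 71.4 under meclizine. Jpx, an activator of Xist, had 97.3, 99.1, 97.4, 98.8, 96.7 and 98.1 in the same order. Ftx had 72.3, 80.1, 73.8, 83.6, 80.9 and 71.0. Both lines are female by the study's methods. Mdrl and Gm15046 were marked in Q7SST only, with percentiles of 41.3 and 34.0.

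The 704 lincRNA genes that start within 5 kb of a protein-coding start were marked in 43.6% to 49.7% of cases, and 284 of them in all 6 lists (40.3%, 36.8% to 44.0%). Their peaks had a median percentile of 75.4 to 79.7, and the centre of the peak lay 201 to 308 bp upstream of the lincRNA start in the median. A peak at such a start cannot be told apart from that of the neighbouring gene.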
